A study of Mus musculus with 6 samples.

Results

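A set of 35 genes for ribosome biogenesis and RNA polymerase I (Pol I) transcription was examined in hair follicle stem cells (HFSCs). The genes were listed by name, with no threshold on a measured value. Of the 35 genes, 33 had a row of their own among the 30738 genes of the array, and 2 (Nop56 and Gnl3) lay on rows that also name a small nucleolar RNA. HFSCs, sorted by surface CD34 and α6-integrin, came from female mice at postnatal day (PD) 35, and 3 arrays per group are called biological replicates. The WT mice were Dab2 fl/fl without Cre, and the Dab2-cKO mice were Dab2 fl/fl with K14CreER, a tamoxifen-inducible Cre driven by a keratin promoter of the basal epidermis. Both groups are of the strain B6;129S4-Dab2tm1Cpr/J, both received tamoxifen (75 mg/kg for 5 days), and the Cre transgene was carried by the Dab2-cKO mice only. Dab2 encodes a clathrin adaptor protein. The labels place the WT samples at the telogen-to-anagen transition and the Dab2-cKO samples in late telogen, so genotype and hair cycle phase cannot be told apart in these arrays.

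Ribosomes are built mostly in the nucleolus, where Pol I transcribes the ribosomal RNA precursor. Small nucleolar ribonucleoproteins (snoRNPs) then modify this RNA: C/D box particles guide ribose methylation and H/ACA box particles guide pseudouridylation. Assembly factors fold and cut the precursor into the small and large subunits, first within a particle called the small subunit processome. Myc is a transcription factor known to drive many of these genes when cells grow. HFSCs are quiescent for most of telogen and divide as a new hair cycle begins.

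Values are log2 signals as deposited by the authors, so a difference of 1 is a doubling of signal. Each difference is the mean of the arrays labelled Dab2-cKO minus the WT mean, with its standard error (SE) from limma fitted to all 30738 genes, and a gene is called lower or higher when the Benjamini-Hochberg adjusted p is under 0.05. A background level of 7.26 log2 was set from 1532 olfactory and vomeronasal receptor genes, which skin cells are not expected to transcribe, as the 95th percentile of their mean signals. Where a group lies at or below it, a fold change is given as a lower bound, and none is given where both groups do. The receptor genes themselves averaged 5.59 to 5.75 log2 in WT and 4.66 to 4.89 in the arrays labelled Dab2-cKO. The level is 1 value for both groups, so such bounds and the calls of dim genes hold for the values as deposited only.

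The targeted gene went against the labels. Dab2 read 6.61, 6.49 and 6.46 log2 in the WT arrays, and 8.86, 8.76 and 8.94 in the arrays labelled Dab2-cKO. The difference was 2.34 ± 0.08 (SE, adjusted p = 1.35e-05), at least 3.02-fold higher where the label names a deletion. Its row pools probes along all of the transcript and those lying outside the deletion cannot check it, so the second group is called the arrays labelled Dab2-cKO, and every direction below rests on that label.

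The groups also differed widely outside the set. Correlations of log2 signals over all genes were at least 0.991 within a group and at most 0.936 between groups. Of 10 hair shaft and inner root sheath markers 10 were lower in arrays labelled Dab2-cKO, and their mean level per array was 14.66 to 15.17 log2 in WT and 5.77 to 5.82 in the other group, which is under the background level. Of 7 melanocyte markers 5 were lower and 1 higher. Markers of other skin cells were higher: 10 of 11 for leukocytes (6.71 to 6.97 against 9.87 to 10.05), 7 of 7 for endothelium (6.04 to 6.22 against 8.51 to 8.83), 7 of 7 for fibroblasts, 6 of 6 for skeletal muscle and 3 of 5 for adipocytes. Markers of HFSCs and basal keratinocytes averaged 9.51 to 9.65 log2 in WT and 9.93 to 10.1 in the arrays labelled Dab2-cKO, with 3 of 11 lower and 6 higher. The part of these shifts in the results on ribosome biogenesis genes was not tested, and fewer cells of a type and less RNA per cell cannot be told apart in bulk samples.

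Of the 33 ribosome biogenesis genes with a row of their own, 20 were lower in arrays labelled Dab2-cKO, 1 was higher and 12 passed the test in neither direction. Over all genes tested, 32.4% were lower and 18.2% were higher. The median difference of the set was -0.41, beside -0.14 for all genes and -0.05 for the protein-coding genes among them, and its members ran from -2.02 (Nop58) to 0.44 (Pes1). For 22 members the brighter group exceeded the background level, and of these 15 were lower and 1 higher, beside 34.6% lower and 34.2% higher among the 8827 genes of that kind. The arrays of the 2 groups did not overlap for 21 of 33 members, and for 63.5% of all genes, so this share was at the background. With only protein-coding genes tested, the counts for the set stayed at 20 lower and 1 higher, beside 29.1% and 26.9% of those genes. These counts and those by role are for the values as deposited. With the arrays centred on the receptor genes, 18 members that had a negative difference, including the Gnl3 row, took a positive one, as described with the scalings.

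**Figure D1:**
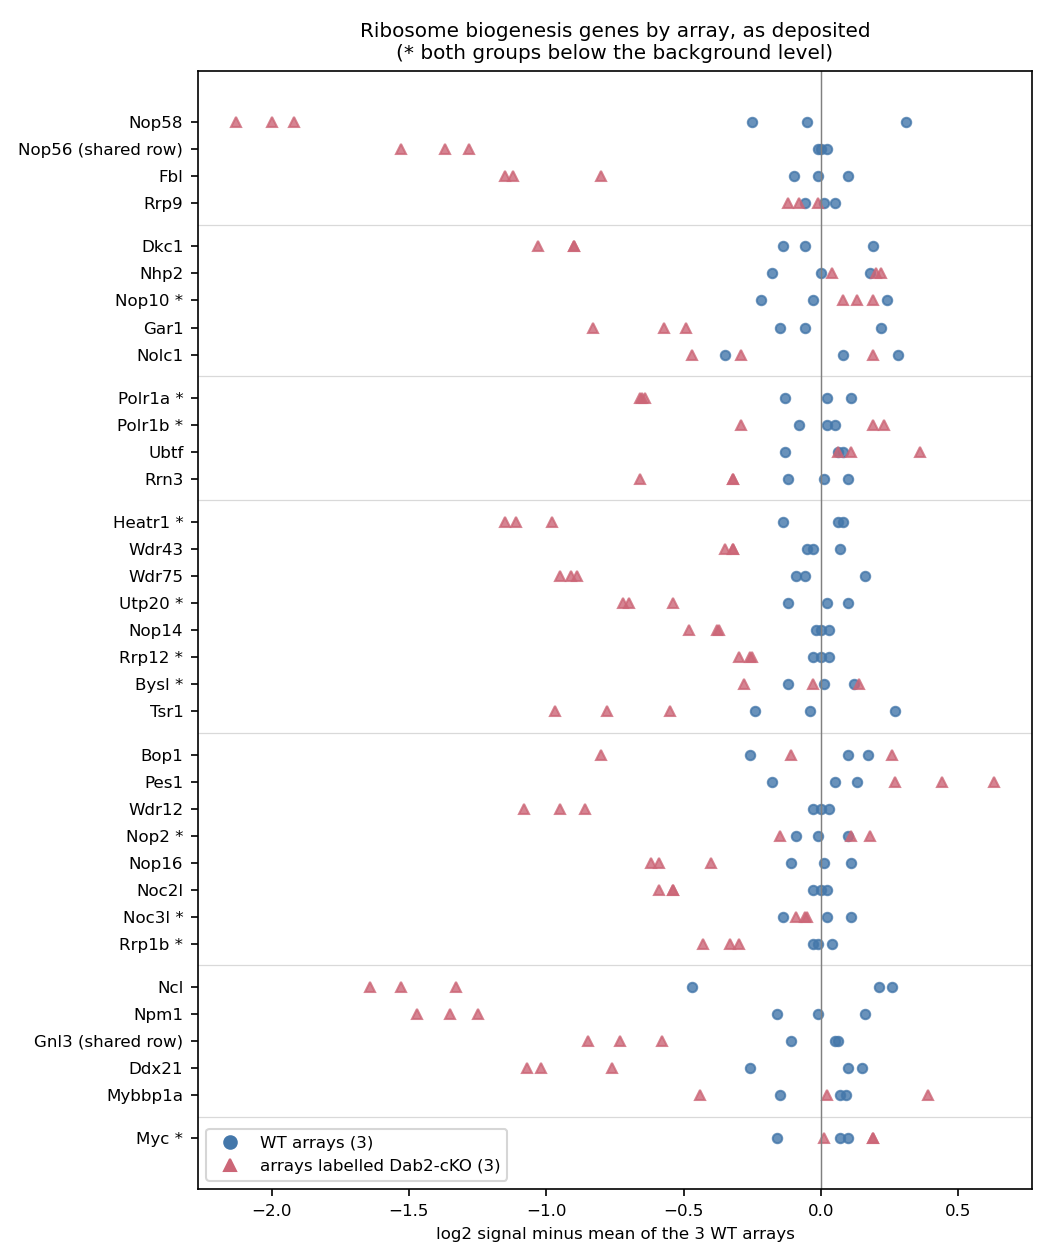
Log2 signal of each gene in each array minus the mean of the 3 WT arrays, for 33 genes and the 2 shared rows, grouped by role from top to bottom (C/D box snoRNP, H/ACA box snoRNP, Pol I, small subunit, large subunit, nucleolar proteins, Myc). Triangles of the arrays labelled Dab2-cKO lie left of all WT circles for Nop58, Fbl, Ncl and Npm1, and right of them for Pes1.

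The largest change of the set, that of Nop58, fell among the core proteins of the C/D box snoRNP. Nop58, a scaffold of the particle (chromosome 1), read 12.45, 12.09 and 11.89 log2 in WT and 10.22, 10.01 and 10.14 in the arrays labelled Dab2-cKO. All 3 of these lay well below the lowest WT array, and the difference was -2.02 ± 0.15 (adjusted p = 0.00018), 4.04-fold lower. Fibrillarin (Fbl, chromosome 7), the methyltransferase of the particle, read 12.6, 12.49 and 12.4 in WT and 11.35, 11.38 and 11.7 in the other group. The groups did not overlap, and the signal was 2.03-fold lower (-1.02 ± 0.12, adjusted p = 0.00083). For comparison, the interquartile range of the 429 genes in the bin of mean signal centred on 11.5 log2, which holds Nop58 and Fbl, was -0.96 to 0.85.

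The row that names Nop56, the partner of Nop58, together with Snord57 was tested among the 65956 transcript rows, of which 31.9% were lower. It read 8.68, 8.66 and 8.65 in WT and 7.38, 7.29 and 7.13 in the arrays labelled Dab2-cKO, where 2 of 3 arrays were above the background level. The difference was -1.40 ± 0.09 (adjusted p = 0.000156), at least 2.55-fold lower, and the signal of the gene and of the small RNA in its intron cannot be separated on that row. Rrp9, which binds the U3 snoRNA, lay near the background level with 7.3, 7.41 and 7.37 in WT and 7.35, 7.28 and 7.24 in the other group. Its groups overlapped, with a difference of -0.07 and a 95% confidence interval of -0.24 to 0.11 (adjusted p = 0.466).

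Among the proteins of the H/ACA box snoRNP, 2 were lower and the other 2 passed the test in neither direction. The shares over all genes were 32.4% lower and 18.2% higher. Dyskerin (Dkc1, chromosome X), the pseudouridine synthase of the particle, read 10.05, 9.8 and 9.72 in WT and 8.96, 8.96 and 8.83 in the arrays labelled Dab2-cKO. Its signal fell 1.92-fold, without overlap (-0.94 ± 0.11, adjusted p = 0.000736). Gar1 (chromosome 3) read 8.9, 8.62 and 8.53 in WT and 7.85, 8.11 and 8.19 in the other group, 1.55-fold lower (-0.63 ± 0.13, adjusted p = 0.00939). Nhp2, which binds the guide RNA with Dkc1, read 8.36, 8.54 and 8.72 in WT and 8.74, 8.76 and 8.58 in the arrays labelled Dab2-cKO. These groups overlapped, and the interval of the difference was -0.12 to 0.42 (adjusted p = 0.289). Centred on the median of all genes, Nhp2 was called higher (0.35, adjusted p = 0.0398). Nop10, the smallest of the core proteins, lay below the background level on all 6 arrays, from 6.6 to 7.06 in WT and from 6.9 to 7.01 in the other group (interval -0.16 to 0.44, adjusted p = 0.375). Nolc1, a nucleolar phosphoprotein that escorts snoRNPs, overlapped between groups with 7.98, 8.61 and 8.41 against 8.52, 8.04 and 7.86 (interval -0.73 to 0.35, adjusted p = 0.495).

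The Pol I group held both directions of point estimate and 2 calls out of 4, both of them lower. Over all genes, 32.4% were lower and 18.2% higher. Rrn3 (chromosome 16), the initiation factor that brings Pol I to the promoter, read 8.57, 8.48 and 8.35 in WT and 8.15, 7.81 and 8.15 in the arrays labelled Dab2-cKO. The groups did not overlap and the signal was 1.35-fold lower (-0.43 ± 0.12, adjusted p = 0.0264). This call rested on single arrays, since the adjusted p was 0.0755 without WT replicate 1 and 0.0699 without WT replicate 2. Ubtf, the factor that binds along active ribosomal DNA, read 8.03, 8.22 and 8.24 in WT and 8.52, 8.27 and 8.22 in the other group, with an interval of -0.09 to 0.44 (adjusted p = 0.214). Centred on the median of all genes, Ubtf was called higher (0.38, adjusted p = 0.0353). Polr1a, the largest subunit of the enzyme, lay below the background level on all 6 arrays, with 6.28, 6.52 and 6.43 in WT and 5.75, 5.76 and 5.77 in the arrays labelled Dab2-cKO (-0.65 ± 0.08, adjusted p = 0.00128). Its partner subunit Polr1b, also below that level throughout, read 6.18, 6.31 and 6.28 against 6.45, 5.97 and 6.49 (interval -0.32 to 0.41, adjusted p = 0.813). For these dim genes no fold change is given.

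Of the small subunit factors 7 of 8 were lower and none higher (median difference -0.53), beside 32.4% and 18.2% of all genes. The calls for Wdr43, Nop14 and Rrp12 were lost when centred on the median of all genes. Centred on the receptor genes, these genes were called higher. Wdr75 (chromosome 1), a processome component known to be needed for ribosomal RNA transcription, read 8.59, 8.81 and 8.56 in WT and 7.76, 7.74 and 7.7 in the arrays labelled Dab2-cKO. The fall was 1.89-fold (-0.92 ± 0.09, adjusted p = 0.000448). Wdr43 (chromosome 17), from the same subcomplex, read 8.32, 8.22 and 8.2 in WT and 7.93, 7.93 and 7.9 in the other group, 1.25-fold lower (-0.33 ± 0.07, adjusted p = 0.00982). Both genes thus separated the groups, with a spread within each group far smaller than the gap.

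Nop14 (chromosome 5), a nuclear factor of small subunit maturation, read 9.08, 9.05 and 9.03 in WT and 8.57, 8.68 and 8.67 in the arrays labelled Dab2-cKO, 1.33-fold lower (-0.41 ± 0.07, adjusted p = 0.00352). Tsr1 (chromosome 11), a late factor of the small subunit precursor, read 8.38, 8.07 and 7.87 in WT and 7.33, 7.14 and 7.56 in the other group, where 2 of 3 arrays were above the background level. It was at least 1.65-fold lower (-0.76 ± 0.16, adjusted p = 0.00991). The 4 remaining genes of this group lay below the background level in both groups. Heatr1, a large scaffold of the processome, differed most of them, with 6.86, 7.08 and 7.06 against 6.02, 5.85 and 5.89 (-1.08 ± 0.09, adjusted p = 0.000276). Utp20 (-0.65 ± 0.09, adjusted p = 0.00186) and Rrp12 (-0.27 ± 0.06, adjusted p = 0.0149) were also lower, and the call for Rrp12 was lost without WT replicate 3 (adjusted p = 0.0523). Bysl, a factor of the small subunit precursor, ran from 5.92 to 6.16 in WT and from 5.76 to 6.18 in the arrays labelled Dab2-cKO (interval -0.37 to 0.25, adjusted p = 0.717).

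Large subunit factors were mixed, with 4 of 8 lower and 1 higher, beside 32.4% and 18.2% of all genes. Wdr12 (chromosome 1), Pes1 (chromosome 11) and Bop1 (chromosome 15) form one complex, named PeBoW, that acts in processing of the large subunit RNA. Wdr12 read 8.44, 8.5 and 8.47 in WT and 7.52, 7.61 and 7.39 in the arrays labelled Dab2-cKO, 1.95-fold lower (-0.96 ± 0.08, adjusted p = 0.000256). Pes1 went the other way, with 10.49, 10.8 and 10.72 in WT and 11.3, 10.94 and 11.11 in the other group, 1.36-fold higher (0.44 ± 0.13, adjusted p = 0.0289). It was the only member called higher, and the call was lost on leaving out WT replicate 1 (adjusted p = 0.0744), WT replicate 3 (0.0596), Dab2-cKO replicate 1 (0.0828) or Dab2-cKO replicate 3 (0.0697). Bop1 spread widely among the arrays labelled Dab2-cKO, with 8.85, 7.79 and 8.48 beside 8.33, 8.69 and 8.76 in WT, and its interval was -0.89 to 0.45 (adjusted p = 0.533).

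Of the other large subunit factors, Nop16 (chromosome 13) read 8.97, 9.09 and 9.19 in WT and 8.68, 8.49 and 8.46 in the arrays labelled Dab2-cKO, 1.45-fold lower (-0.54 ± 0.10, adjusted p = 0.00513). Noc2l (chromosome 4), a nucleolar protein also known to bind p53, read 7.47, 7.44 and 7.49 in WT and 6.93, 6.88 and 6.93 in the other group. All 3 of the latter were below the background level, so it was at least 1.15-fold lower as deposited (-0.55 ± 0.06, adjusted p = 0.000855). Centred on the receptor genes, Noc2l was called higher (0.31, adjusted p = 0.0402), as were 76.5% of all genes. The other 3 factors were below the background level in both groups. Rrp1b was lower (-0.35 ± 0.07, adjusted p = 0.00796). Noc3l, a partner of Noc2l, had an interval of -0.27 to 0.14 (adjusted p = 0.548), and Nop2, a methyltransferase of the large subunit RNA, one of -0.22 to 0.31 (adjusted p = 0.745).

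The abundant nucleolar proteins were lower. Nucleolin (Ncl, chromosome 1), which binds ribosomal DNA and its transcripts, read 12.85, 12.8 and 12.12 in WT and 11.26, 11.06 and 10.95 in the arrays labelled Dab2-cKO, 2.82-fold lower (-1.50 ± 0.21, adjusted p = 0.00182). Nucleophosmin (Npm1, chromosome 11), a chaperone that organises the outer nucleolus, read 16.65, 16.48 and 16.33 in WT and 15.14, 15.02 and 15.24 in the other group, 2.56-fold lower (-1.36 ± 0.11, adjusted p = 0.000225). The interquartile range of the 122 genes in the bin centred on 15.5 log2, where Npm1 lies, was -0.61 to 0.27. Npm1 has many processed pseudogenes, and how far its probes also match them was not tested.

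The RNA helicase Ddx21 (chromosome 10) read 9.59, 9.64 and 9.23 in WT and 8.47, 8.42 and 8.73 in the arrays labelled Dab2-cKO, 1.93-fold lower (-0.95 ± 0.14, adjusted p = 0.00235). The row that names Gnl3 (nucleostemin, a nucleolar GTPase of stem cells) together with Snord19 read 8.53, 8.69 and 8.7 in WT and 7.91, 8.06 and 7.79 in the other group. It was 1.65-fold lower in the fit over all transcript rows (-0.72 ± 0.10, adjusted p = 0.00253). Mybbp1a, a nucleolar repressor that binds Myb, overlapped between groups, with 7.66, 7.9 and 7.88 in WT and 7.83, 7.37 and 8.2 in the arrays labelled Dab2-cKO (interval -0.52 to 0.50, adjusted p = 0.97).

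**Figure D2:**
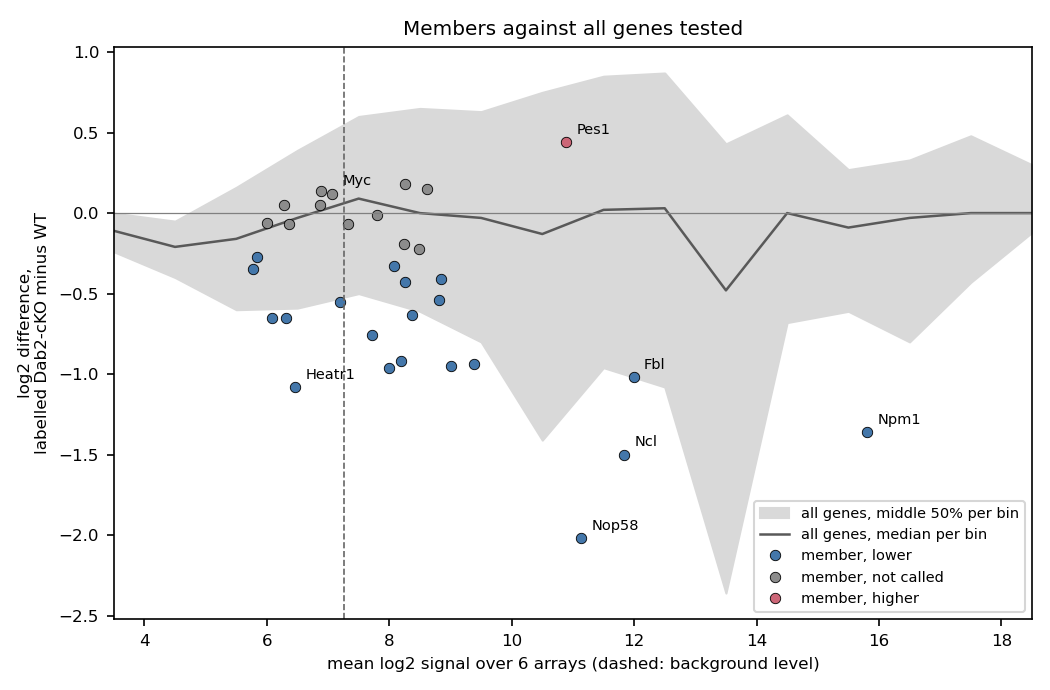
Log2 difference between groups against the mean log2 signal over 6 arrays for the 33 genes (points), with the median and the interquartile range of all genes tested in bins of mean signal (line and grey band). Nop58 at -2.02, Ncl at -1.50 and Npm1 at -1.36 lie below the band, and Pes1 at 0.44 lies inside it.

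Myc itself was dim and, as deposited, passed the test in neither direction. Its row read 6.84, 7.1 and 7.07 in WT and 7.19, 7.19 and 7.01 in the arrays labelled Dab2-cKO, all below the background level, with a difference of 0.12 ± 0.10 and an interval of -0.12 to 0.37 (adjusted p = 0.338). Myc was called higher when centred on the median of all genes (0.33, adjusted p = 0.0439). It was also called higher on the receptor genes (0.99, adjusted p = 0.000141), as were 76.5% of all genes. Its dimerisation partner Max read 10.74, 10.83 and 11.12 in WT and 12.69, 12.63 and 12.17 in the other group, 3.03-fold higher without overlap (1.6 ± 0.17, adjusted p = 0.00063). Of 12 other genes of the Myc network, 3 were higher and 3 lower, beside 18.2% and 32.4% of all genes. The other 2 called higher were Mxd4 (2.19-fold), which pairs with Max and opposes Myc, and Mlx (2.13-fold), a protein related to Max. Those called lower, Mycn, Mycl and Mxd3, were too dim to exceed the background level on any array. With the median of all genes set equal, 5 of the 12 were higher and 1 lower, beside 28% and 19.8% of all genes. These counts were 3 and 1 after quantile normalization (26.4% and 21% of all genes). They were 10 and 0 on the receptor genes (76.5% and 7.08%), and 3 and 4 on the positive control rows (8.46% and 51.9%).

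The E-box CACGTG, the letters that Myc and Max are known to bind as a pair and which reads the same on both strands, was looked for in the RefSeq promoter windows of build GRCm38.p6, each 300 bases long and beginning 250 bases before an annotated start. Windows were matched for 30 of 35 members (not for Fbl, Npm1, Bop1, Rrp12 and Myc), and 7 of 30 (23.3%) held the E-box, beside 17 of 96 other ribosome biogenesis genes (17.7%) and 8.09% of all 27025 genes with a window. It was held by 4 of 19 members called lower (21.1%) and 2 of 10 called in neither direction (20%). In 5 of the 7 genes (Utp20, Pes1, Mybbp1a, Tsr1 and Wdr43) it lay at or past the start, and the promoter stretches of the other 2, Rrn3 and Nop2, are printed to show the letters beside the gene that was lower and the gene that was not. They run 5′ to 3′ on the gene's strand, with the E-box in capitals, and Rrn3 holds it in 2 places. The Rrn3 stretches are chr16:13780454-13780519 and chr16:13780621-13780686, and the Nop2 stretch is chr6:125131793-125131858, all on the + strand.
Rrn3, distal: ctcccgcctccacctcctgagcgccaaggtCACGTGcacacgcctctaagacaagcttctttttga
Rrn3, proximal: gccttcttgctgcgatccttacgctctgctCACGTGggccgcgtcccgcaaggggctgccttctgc
Nop2: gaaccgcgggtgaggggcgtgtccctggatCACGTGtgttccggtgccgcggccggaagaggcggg

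The ETS motif CCGGAAG, known to be bound by growth-related ETS factors, was looked for on both strands and does not overlap the E-box letters. It was in the windows of 9 of 30 members (30%), of 45 of 96 other ribosome biogenesis genes (46.9%) and of 9.93% of all genes with a window. Members called lower held it in 5 of 19 (26.3%) and members called in neither direction in 4 of 10 (40%). The stretches of 4 members are printed because they put both outcomes side by side: Heatr1 and Gar1 were called lower, and Nhp2 and Nolc1 were not. The motif or its reverse complement is in capitals, and the stretches end at or before the annotated start: chr13:12395329-12395374 (Heatr1, + strand), chr3:129831403-129831469 (Gar1, - strand), chr11:51619720-51619772 (Nhp2, + strand) and chr19:46075803-46075846 (Nolc1, + strand). A match is a description of letters and not of binding.
Heatr1: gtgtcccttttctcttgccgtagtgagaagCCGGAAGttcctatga
Gar1: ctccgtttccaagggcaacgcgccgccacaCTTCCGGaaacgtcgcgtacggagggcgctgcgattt
Nhp2: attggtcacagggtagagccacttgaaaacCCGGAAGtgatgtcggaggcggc
Nolc1: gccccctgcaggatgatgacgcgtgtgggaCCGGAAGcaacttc

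The change of a gene was also set against that of its partner in one complex, or, for Rrn3 and Ubtf, of another Pol I initiation factor. Within each array the log2 signal of one partner was taken minus that of the other, so that any constant added to an array drops out, and the groups were compared over 10 pairs chosen after the values were seen. Over 3 against 3 arrays a two-sided exact permutation test cannot go below p = 0.1, and 9 of the 10 pairs reached it without overlap (0.111 after Benjamini-Hochberg adjustment over the 10). Since the groups do not overlap for 63.5% of single genes and the pairs were picked on their values, this count is a description only. Relative to its WT mean, Pes1 minus Wdr12 was 1.57, 1.13 and 1.51 in the arrays labelled Dab2-cKO and -0.16, 0.11 and 0.05 in WT, a difference of 1.40 ± 0.16 (SE). Pes1 minus Bop1 differed by 0.66 ± 0.22. Only Wdr12 minus Bop1 overlapped between groups (-0.75 ± 0.37, exact permutation p = 0.3).

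In the H/ACA box particle, Dkc1 minus Nhp2 was -1.10, -1.11 and -1.07 in the arrays labelled Dab2-cKO against 0.36, -0.05 and -0.31 in WT, a difference of -1.09 ± 0.20. Gar1 minus Nhp2 differed by -0.79 ± 0.25, and Dkc1 minus Gar1 by less, -0.31 ± 0.14. In the C/D box particle, Nop58 minus Fbl differed by -1.0 ± 0.16. Pairs with the shared Nop56 row depended on the scaling. Nop58 minus Nop56 was -0.62 ± 0.18 as deposited and -0.18 after quantile normalization of all transcript rows, not of the genes alone. Fbl minus Nop56 was 0.38 ± 0.19 and 1.0. Of the Pol I initiation factors, Rrn3 minus Ubtf differed by -0.61 ± 0.17, the 3 arrays labelled Dab2-cKO at -0.67, -0.77 and -0.38 and the WT arrays at 0.23, -0.04 and -0.19.

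**Figure D3:**
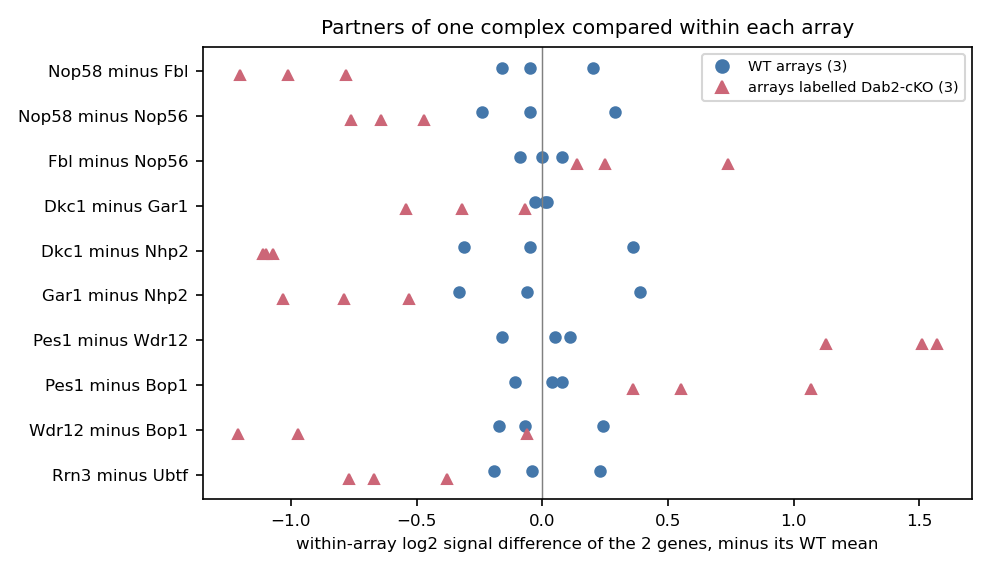
Within-array log2 difference between 2 genes, minus its WT mean, for the 10 pairs, with 1 point per array. Rrn3 and Ubtf are paired as Pol I initiation factors and not as partners of one complex. The arrays labelled Dab2-cKO lie right of WT for Pes1 minus Wdr12 (1.13 to 1.57), left of it for Dkc1 minus Nhp2 (-1.11 to -1.07), and overlap WT only for Wdr12 minus Bop1.

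How many members were called lower depended on what the arrays were set equal by. The receptor genes, used for the background level, averaged 5.59 to 5.75 log2 in WT and 4.66 to 4.89 in the arrays labelled Dab2-cKO, whereas the median of 1324 positive control rows was 8.25 to 8.62 in WT and 8.67 to 8.94 in the other group. Centred on the median of all genes, 15 members were lower and 4 higher (19.8% and 28% of all genes). Those 4 were Pes1 (0.64), Ubtf (0.38), Nhp2 (0.35) and Myc (0.33). After quantile normalization 18 members were lower and 1 higher (21% and 26.4%). When the positive control rows were set equal, 22 members were lower and 0 higher (51.9% and 8.46%), and when the receptor genes were, 3 members were lower and 20 higher (7.08% and 76.5%).

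The median of all genes moved with these scalings, from -0.48 on the positive control rows to 0.73 on the receptor genes. Against it the position of the set held, because a constant per array cancels there by construction: the median of the members minus that of all genes was -0.28 under every centring and -0.41 after quantile normalization. Nop58, Ncl and Npm1 were lower under all 5 scalings, with differences of -1.15, -0.64 and -0.49 on the receptor genes. No member was higher under all 5, and 9 members were called lower under one scaling and higher under another. Pes1 had a positive difference under each scaling (0.09, with an adjusted p of 0.652, on the positive control rows, and 1.30 on the receptor genes).

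**Figure D4:**
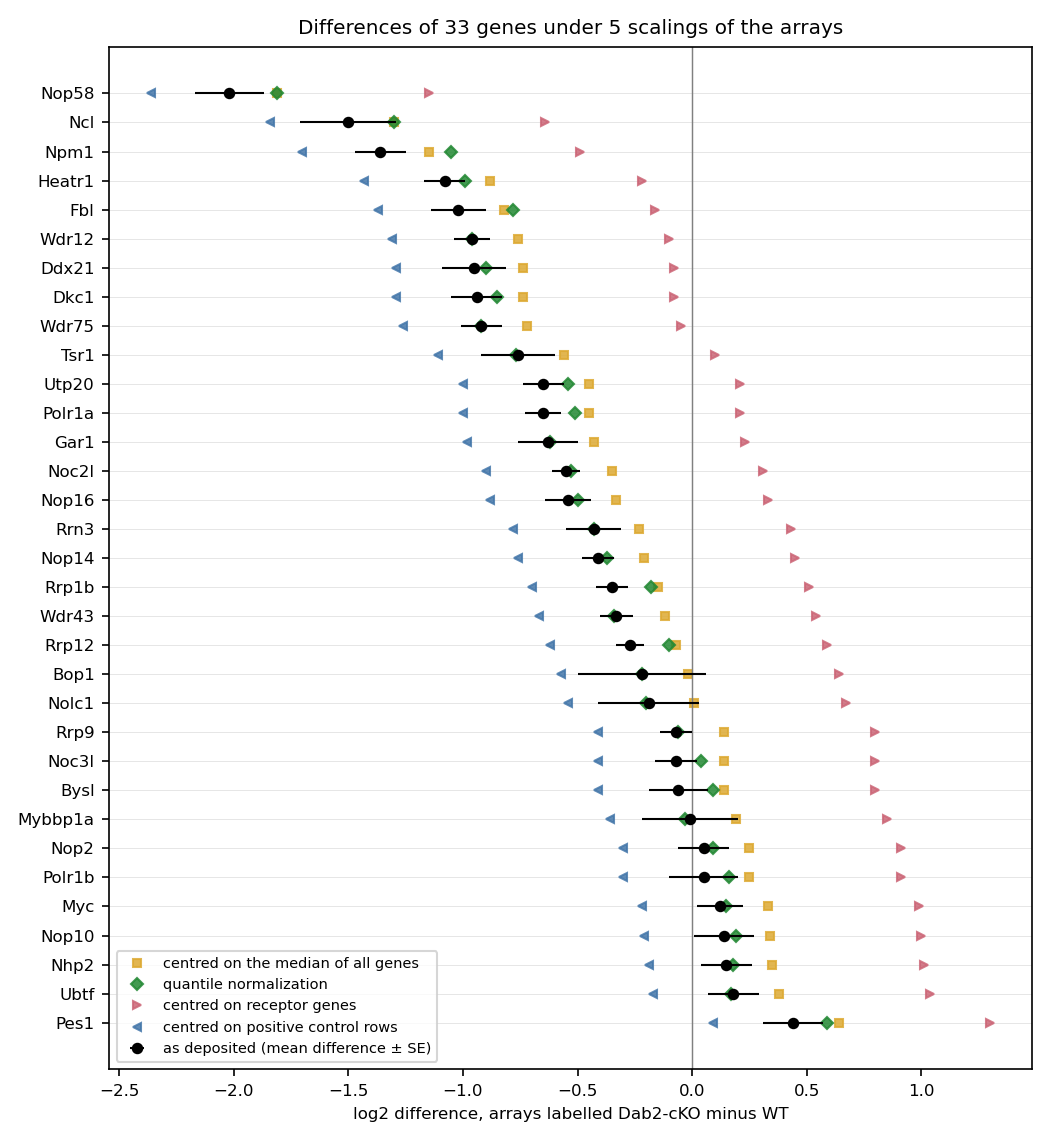
Log2 difference of the 33 genes under 5 scalings of the arrays, ordered by the difference as deposited (black, mean difference ± SE). Centring on receptor genes moves the points right and centring on positive control rows moves them left, and Nop58, Ncl and Npm1 stay below 0 throughout.

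Other genes of the pathway were looked for by name, and their counts are for the values as deposited. Of 119 with a row of their own, 40 were lower and 25 higher, shares close to the 32.4% and 18.2% of all genes. Their median was -0.14, equal to that of all genes, and 14 were higher without Dab2-cKO replicate 1. Which direction was the more frequent turned with the scaling. Centred on the median of all genes, 23 were lower and 34 higher, beside 19.8% and 28% of all genes. After quantile normalization the counts were 35 and 31 (21% and 26.4% of all genes). They were 5 and 93 on the receptor genes (7.08% and 76.5%), and 66 and 4 on the positive control rows (51.9% and 8.46%). These shares of all genes also stand beside the counts under the same scalings in the rest of this paragraph. Large subunit factors outside the set had 20 of 42 lower and 6 higher (median -0.28), and 13 and 8 when centred on the median of all genes. Named by size among the genes above background, they were Rpf2 (2.86-fold lower), which brings a small ribosomal RNA into the large subunit, Nifk (2.51-fold lower), which binds the proliferation protein Ki-67, Rsl1d1 (at least 2.43-fold lower) and the GTPase Gtpbp4 (2.33-fold lower). Small subunit factors outside the set had 13 of 40 lower and 7 higher (median -0.20), the lower share being that of all genes. These counts were 8 and 10 when centred on the median of all genes, 0 and 32 on the receptor genes and 26 and 1 on the positive control rows, and 4 were higher without Dab2-cKO replicate 1. Ddx10, a helicase, was at least 1.93-fold lower, and Utp11 (2.06-fold), Dcaf13 (1.73-fold) and Imp3 (at least 1.11-fold), all processome proteins, were higher.

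For each list of this paragraph, the shares over all genes as deposited were 32.4% lower and 18.2% higher. The Pol I factors outside the set had 1 of 15 lower and 6 higher (median 0.02), and 0 lower on leaving out any array but Dab2-cKO replicate 1. Those named were the shared polymerase subunits Polr2e (1.71-fold), Polr2h (1.55-fold) and Polr2f (1.53-fold) and the Pol I subunit Znrd1 (1.70-fold), all higher as deposited, and with the positive control rows set equal none of the 4 passed the test (adjusted p from 0.0521 for Polr2e to 0.233 for Polr2h). Without Dab2-cKO replicate 1 only 2 of the 15 were higher, and without Dab2-cKO replicate 2 only 3. Factors that assemble snoRNPs had 1 of 9 lower and 3 higher (median 0.13), among them the chaperone adaptor Pih1d1 (1.80-fold higher). The lower gene, Tgs1, kept its call only with WT replicate 2 as the array left out. Subunits and cofactors of the RNA exosome, which trims the precursor, had 5 of 13 lower and 3 higher (median 0.01). Exosc2 was at least 1.81-fold lower and Exosc7 1.70-fold higher, and without WT replicate 1 or Dab2-cKO replicate 1 only 1 gene of this list was higher. Its lower count was 3 without WT replicate 2, without Dab2-cKO replicate 2 and after quantile normalization (21% of all genes). Centred on the median of all genes, the exosome list had 2 lower and 4 higher, beside 19.8% and 28% of all genes.

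Genes of proliferation were lower in 12 of 13 cases and higher in none (median -1.28), beside 32.4% and 18.2% of all genes. The lower count was 12 when centred on the median of all genes, 13 on the positive control rows and 6 on the receptor genes, with none higher in any of these. The lower shares of all genes there were 19.8%, 51.9% and 7.08%. Mki67, which encodes Ki-67, was 13.4-fold lower, Top2a at least 5.28-fold, Plk1 at least 3.91-fold and Ccna2 3.83-fold. Subunits of RNA polymerases II and III, as a comparison, counted 5 of 16 lower and 5 higher (median -0.01), beside 32.4% and 18.2% of all genes. Their lower count was 2 without WT replicate 2 and 3 without WT replicate 3 or Dab2-cKO replicate 3. With the median of all genes set equal 1 was lower and 6 higher (19.8% and 28% of all genes). On the receptor genes these counts were 0 and 15 (7.08% and 76.5%). Polr2j (2.34-fold) and Polr2d (1.97-fold) were higher and Polr2b was 1.56-fold lower.

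**Figure D5:**
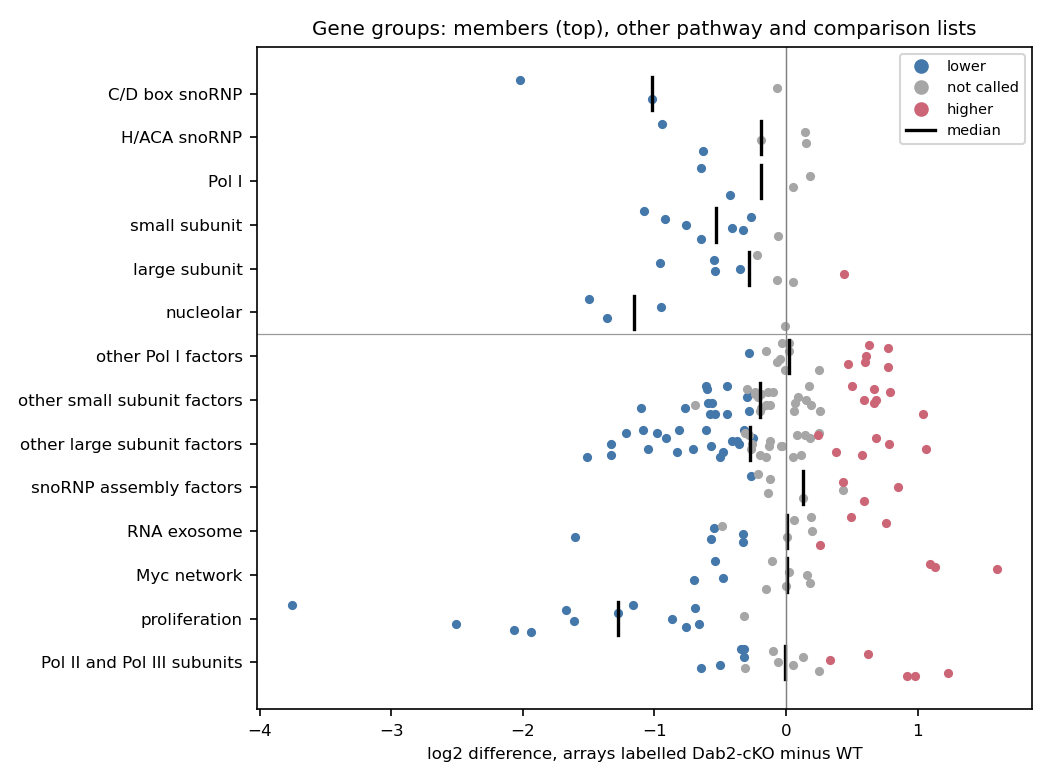
Log2 difference between groups for each gene of the member groups (above the line) and of the other pathway and comparison lists (below it), as deposited, coloured by call, with the median of each list as a bar. Small subunit members have 7 of 8 genes lower, other Pol I factors 6 of 15 higher, and proliferation genes 12 of 13 lower. Over all genes, 32.4% were lower and 18.2% higher.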

How the data were processed

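Clariom D mouse arrays were hybridised after amplification of 1 ng of RNA (GeneChip WT Pico). The log2 signals that the authors deposited were made with RMA and Affymetrix Expression Console per the labels, with no versions given. RMA sets probe distributions equal across arrays, so total RNA per cell cannot be compared. Of 72688 rows, 6732 controls were left out, and 31292 transcript rows named 1 gene. Of 439 genes with several rows, the row with the highest mean was used.

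The arrays labelled Dab2-cKO were compared with WT by limma 3.58.1 (R 4.3.3; lmFit, eBayes, no covariate), two-sided, with Benjamini-Hochberg adjustment over 30738 genes at a threshold of 0.05. The script was tested on simulated data. The number of arrays (3 per group) limits the precision. Each p-value sets a difference against the spread between these arrays, which limma moderates over all genes. Alternatives were 4 other scalings, a background filter, the mean of a gene's rows, robust variance, a replicate block, each array left out, all transcript rows and protein-coding genes only (the last, and the pairs of partners, chosen after seeing the data). The members and lists were chosen with earlier results of these data known. Named genes were all 35 members and, of each other list, up to 4 called genes with the largest difference and the brighter group above background. Promoters came from RefSeq (GRCm38.p6), and for the array annotation a build is not given in the sources used.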

Additional observations from a re-analysis of the deposited data

How the results depend on the processing

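Of 33 genes, 20 were lower and 1 higher as deposited. The lower count ran from 19 to 20 with each array left out and the higher count from 0 to 1. With all transcript rows tested, these 33 kept their calls, and 22 lower were counted because the Nop56 and Gnl3 rows were added. Centred on receptor genes, 3 were lower and 20 higher. The higher count was 4 when centred on the median of all genes, and 0 when centred on positive control rows, with a trended robust variance (20 lower, Pes1 at adjusted p = 0.0524) and with the replicate block (18 lower). Same-numbered deviations from the group means correlated at -0.0778, -0.2222 and -0.0171, and differently numbered ones at -0.1164 to 0.2011. Whether the replicate numbers pair the samples cannot be decided from 3 arrays per group. With the block the calls for Rrn3 (adjusted p = 0.0502), Rrp12 (0.0666) and Pes1 (0.0831) were lost and no other member's call was.

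Centring on receptor genes turned the sign of 18 members, to log2 differences of 0.80 (Rrp9), 0.23 (Gar1), 0.67 (Nolc1), 0.21 (Polr1a), 0.43 (Rrn3), 0.54 (Wdr43), 0.21 (Utp20), 0.45 (Nop14), 0.59 (Rrp12), 0.80 (Bysl), 0.10 (Tsr1), 0.64 (Bop1), 0.33 (Nop16), 0.31 (Noc2l), 0.80 (Noc3l), 0.51 (Rrp1b), 0.85 (Mybbp1a) and 0.14 (the Gnl3 row). Among the genes outside the set that are named in the text or by the naming rule, it turned Tgs1 (0.59), Dis3 (0.29), Mtrex (0.31) and Polr2b (0.22). These turns follow from the construction, which moves every gene up by the same amount. Calls for Rrn3, Wdr43, Nop14, Rrp12 and Rrp1b were lost when centred on the median of all genes, and those for Rrp12 and Rrp1b after quantile normalization. Signal at or below the background level limits 11 of the 33 genes, for which no fold change is given.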
